A study of Cocos nucifera and Zingiber officinale with 11 samples.

Results

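The tomato library held 118 of the 418 plant miRNA names listed over 11 libraries of edible plant-derived exosome-like nanoparticles (EPDELNs), the vesicles that can be spun down from the juice of fruits and vegetables. A name was taken as a member when its level in the tomato library was above 0, and the 118 names fell into 78 of 189 families, a family being all names with the same number. The fruit of Solanum lycopersicum was ground with phosphate-buffered saline, as were ginger, Hami melon, pea and soybean, whereas blueberry, grapefruit, kiwifruit, orange and pear were squeezed by hand. The library used as pea carries another legume, Lima bean, in its title and pea in its description. Small RNA of each vesicle pellet was sequenced once, so that each plant had 1 library and every difference between plants is a difference between single libraries without a replicate. The plants were bought at a market with no treatment described, and plant, market lot and preparation cannot be told apart. A lower share of a miRNA in these pooled vesicles can mean fewer vesicles that carry it or less of it per vesicle, which cannot be told apart either.

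A plant miRNA is cut from the stem of a hairpin transcript as a duplex of a 5p and a 3p strand. One strand is usually kept by an Argonaute protein and guides the cleavage of matching transcripts, while its partner is degraded, and the kept strand is mostly 20 to 22 nt long. Transfer RNAs end in the letters CCA, which are added after transcription, and their pieces, like those of ribosomal RNA, are common in small RNA libraries and have entered miRNA databases under miRNA names. Names of 11 such families are called fragment-like here. Tomato belongs to the Solanaceae, which carry miRNA families that are not known from most other plants, and names given to a miRNA of tomato itself begin with sly.

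The sequences below are the most abundant ones listed in the tomato library and are shown because the results turn on them. The first set holds the strands of the regulators and of the tomato family MIR-1919 that led the library, with bases 2 to 8, the seed, in capitals. Both strands are printed where both were abundant.
aly-MIR-166h-3p: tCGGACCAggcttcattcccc
mtr-MIR-166g-5p: gGAATGTTgtctggctcgag
sly-MIR-166c-5p: gGGATGTTgtctggctcga
bra-MIR-168c-5p: tCGCTTGGtgcaggtcgggac
mtr-MIR-168c-3p: cCCGCCTTgcatcaactg
sly-MIR-168a-3p: cCTGCCTTgcatcaactg
mtr-MIR-162: tCGATAAAcctctgcatcca
ath-MIR-162b-5p: gGAGGCAGcggttcatcgatc
sly-MIR-1919a: aCGAGAGTcatctgtgacag
sly-MIR-1919c-5p: tGTCGCAGatgactttcgccc
sly-MIR-482e-3p: tCTTTCCTactcctcccatacc
mtr-MIR-159a: tTTGGATTgaagggagctcta

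The second set holds the fragment-like names, with a closing CCA in capitals where there was one. Of the 10 fragment-like names listed in tomato 6 ended in CCA, and these are shown with the highest name, MIR-6300.
gma-MIR-6300: gtcgttgtagtatagtgg
bdi-MIR-5054: ccccacggtgggcgCCA
ath-MIR-8175: ccccggcaacggcgCCA
osa-MIR-5072: ccccagcggagtcgCCA
osa-MIR-5077: tcacgtcgggttcaCCA
bdi-MIR-5059: cctgggcagcaacaCCA
cpa-MIR-8155: acctggctctgataCCA

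The third set holds 3 names outside the fragment-like families whose listed sequences were short, printed in the same way.
ppt-MIR-1029: ctctctcaccccaCCA
gma-MIR-4375: ccactgtggtcgCCA
zma-MIR-398b-5p: gggggacggactggga

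The tomato library had 130911 miRNA reads, the fifth highest number, against 4541 to 377989 in the other 10 libraries. Its summed level of 28792 RPM (reads scaled to a fixed total) was the tenth, above that of coconut only, and its miRNA reads were 2.88% of the reads to which RPM refers, against 0.294% to 53.3% elsewhere. Single reads were worth 0.22 RPM in tomato, and the lowest listed miRNA had 5 reads. The number of names was the second highest, 118 against 83.2 ± 31.6 (SD, n = 10 other libraries, range 32 to 127), and did not stand apart (exact permutation p = 0.364, two-sided).

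A few names carried most of the level (plot of the 30 highest names). MIR-6300 alone held 34.2% of it (95% Wilson interval 33.9% to 34.4%), the 5 highest names together 68.2% and the 20 highest 96.3%. At the other end 42 names had at most 10 reads each.

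**Figure D1:**
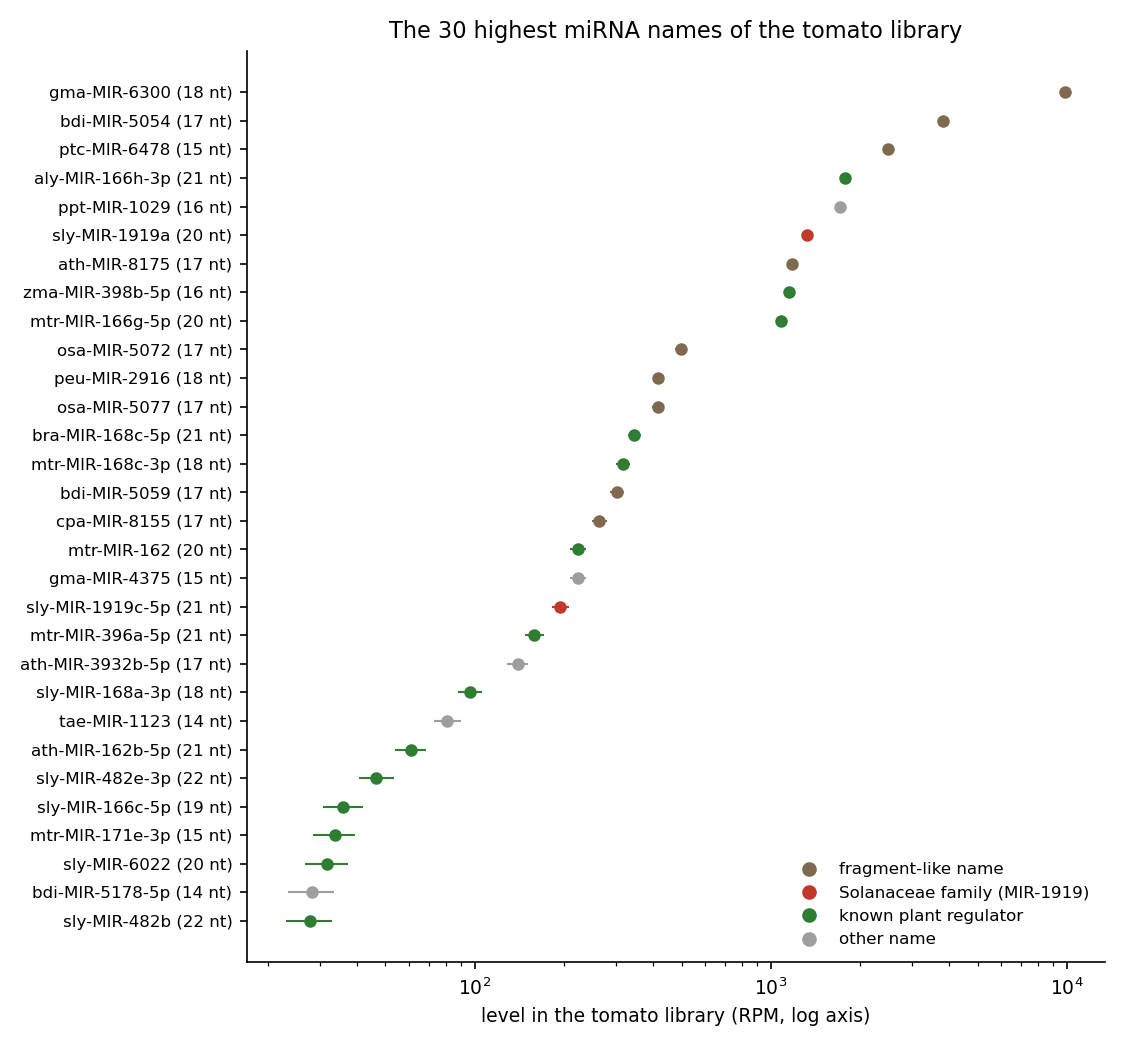
Levels of the 30 highest names in the tomato library on a log axis in RPM, with the length of each listed sequence in parentheses. Bars are exact 95% Poisson intervals and cover counting error only, and colours give the class of the name. Fragment-like names fill the first 3 places, and aly-MIR-166h-3p, at 1779 RPM, is the highest known regulator.

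Fragment-like names made up the larger part of the level. There were 10 of them, 9 among the 20 highest names, with 19231 RPM together or 66.8% of the summed level (66.5% to 67.0%). The other 10 libraries held 1.15% (pea) to 87.6% (grapefruit), with a median of 11.1%. Tomato ranked second among the 11 (exact permutation p = 0.182) and first among the 5 ground ones, of which the next had 36.8% (exact permutation p = 0.2, the smallest that 5 libraries allow).

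MIR-6300 made up 51.1% of the fragment-like level in tomato and had 9833 RPM, or 34.2% of all. It was listed in 7 other libraries at shares of 0.00741% (kiwifruit) to 12.2% (ginger) with a median of 0.237%, and was not listed in blueberry, coconut and pea. Its 18 nt were identical to the reference. In 3 of the other 7 libraries the same sequence was the most abundant one.

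The remaining fragment-like names were also listed in other plants. MIR-5054 followed with 3820 RPM (13.3%, against 0.217% to 29.7% in the other 10) and MIR-6478 with 2485 RPM (8.63%, against 0.0201% to 35.8% in 8 others), both highest in grapefruit. MIR-8175 had 1176 RPM (4.08%, against 0.0363% to 9.18%, highest in Hami melon). MIR-5059 stood at 302 RPM, and its 1.05% lay above the 0.00798% to 0.208% of the 4 other libraries that list it. MIR-5072, MIR-2916, MIR-5077, MIR-8155 and MIR-5368 lay inside the range of the other libraries, and MIR-894 was not listed (plot of fragment-like names).

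**Figure D2:**
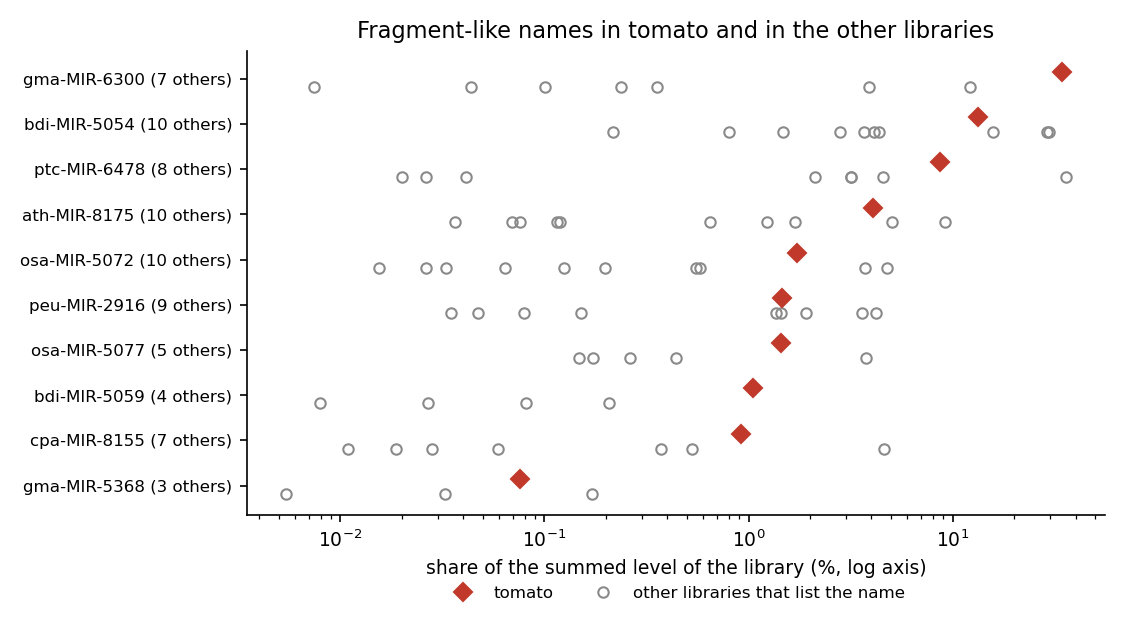
Share of the summed level of each library (%, log axis) held by each fragment-like name of tomato. Red diamonds are the tomato library and open circles the other libraries that list the name, whose number is in parentheses. MIR-6300 and MIR-5059 lie to the right of all circles, the other names between them.

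The ends of MIR-6300 and MIR-8175 could be paired. The first 7 bases of MIR-6300 paired with the 7 bases of MIR-8175 that come before its last 4, with 1 G-T pair among them. Both stretches are in capitals here.
gma-MIR-6300: GTCGTTGtagtatagtgg
ath-MIR-8175: ccccggCAACGGCgcca
The first 7 bases of any listed sequence were set against the 17 listed sequences that end in CCA. The number that would pair by chance was not tested. A pairing of this kind was found in 5 of the 2006 pairs searched. In 2 of the 5 it had no G-T pair, MIR-319d-3p with MIR-3623-5p and MIR-164d with MIR-164b-3p, neither of which holds a fragment-like name. Their levels were not in one ratio over the libraries, since MIR-6300 was 8.36 times MIR-8175 in tomato, against 0.0199 to 18.8 times in the 7 other libraries that list both (median 1.21).

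A closing CCA was not limited to the fragment-like names. In tomato the listed sequence of 17 of 118 names ended in CCA. These names held 30.2% of the level, against 0.249% to 48.3% in the other libraries (mean 12.3% ± 16.8, SD, n = 10, exact permutation p = 0.273). Of these, 11 were not fragment-like. Among them was MIR-162, with 2.35% of the level that remained without fragment-like names, whose CCA lies within its reference before the last base. The 11 held 23.1% of that level, against 0% to 1.55% in the other 10 libraries, and the references of only 3 of the 11 end in CCA. MIR-1029, a name from a moss, made up most of this with 1714 RPM, or 5.95% of all, against 0.00714% to 0.110% in the 8 other libraries that list it. Its 16 nt differed from the reference at 2 positions. The 8 others listed forms of 14 to 17 nt of the same run, each end of which lies at most 1 base away. MIR-4375, with 224 RPM, was 15 nt long and had 6 mismatches to its reference when counted without gaps, where a missing base can count as several.

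Some names shared sequence. MIR-8155, MIR-1511 and MIR-1863a, which are 3 different families by name, had the run gctctgatacca in common in tomato, and MIR-8155 and MIR-1863a ended with it. Over all 118 names there were 106 seeds, and 10 seeds were shared by 22 names. Only 2 of the 10 joined names of different families: the seed of MIR-156 and MIR-157, which are one family in all but name, and that of MIR-8155 and MIR-8139c.

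The listed sequences of tomato were shorter than those of the other plants (plot of lengths). Sequences of 20 to 22 nt held 19.5% of the level, below the 54.5% (coconut) to 99.2% (orange) of every other library (mean 79.4% ± 17.6, SD, n = 10, exact permutation p = 0.0909, the smallest that 11 libraries allow, adjusted p = 0.303 over 10 measures). Sequences under 18 nt held 43.2%, and coconut and grapefruit were higher (range 0.465% to 45.5%, exact permutation p = 0.273). The most abundant lengths were 18 nt (37.1%, mostly MIR-6300) and 17 nt (23.1%).

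The difference was also seen without the fragment-like names. Sequences of 20 to 22 nt then held 58.4% in tomato against 72.9% to 99.9% elsewhere, and 21 nt alone 28.5% against 51.6% to 95.2%. Sequences under 18 nt held 36.5% against 0.125% to 15.5%, and most of them were MIR-1029 and MIR-398b-5p, both of 16 nt. Each of these 3 shares lay outside the range of the other 10 (exact permutation p = 0.0909 each, the smallest possible). With each name counted once, 65 of 118 names (55.1%) were of 20 to 22 nt, again below every other library (56.3% to 86.5%).

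**Figure D3:**
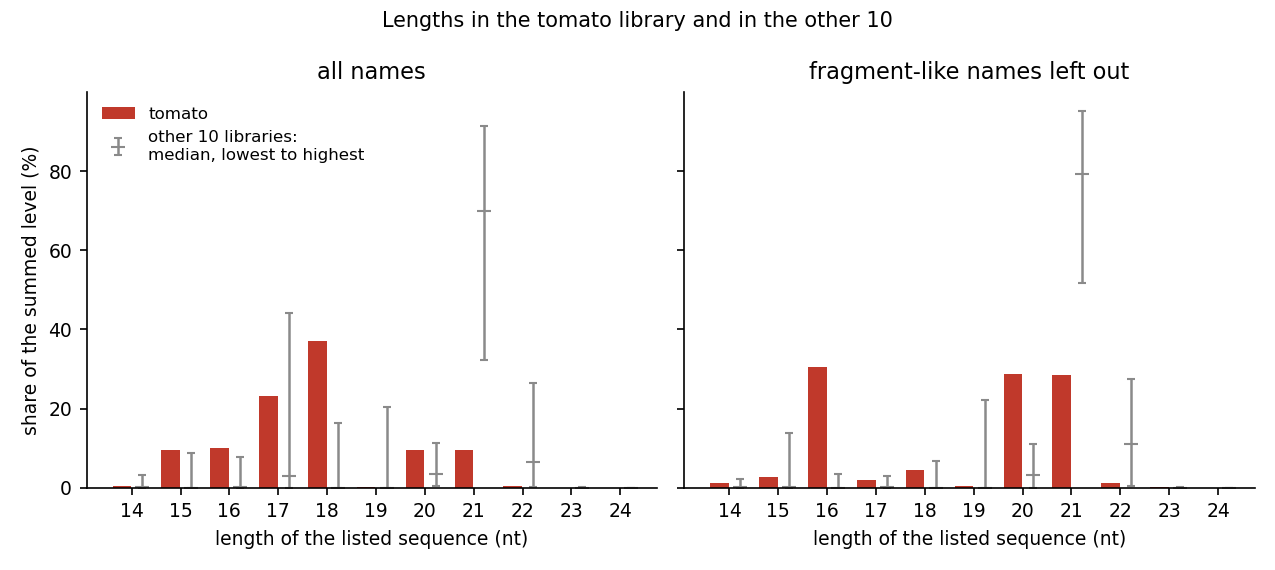
Share of the summed level (%) by length of the listed sequence (nt), for all names (left) and without fragment-like names (right). Red bars are the tomato library, and grey ticks and whiskers are the median and the lowest to highest of the other 10. The bar at 21 nt is below the whisker in both panels, at 9.47% and 28.5%.

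The share of names listed with the reference sequence itself was lower in tomato than in any other library. Only 32 of 118 listed sequences (27.1%) were identical to the reference, against 34.7% to 51.3% in the others, whereas 63 (53.4%) lay wholly within it, against 48.7% to 68.8%. Names with at most 2 differences from the reference were 91 (77.1%, against 86.3% to 93.8%), and the 27 with more held 5.65% of the level, against 0.155% to 4.28%. Differences here and below were counted without gaps, so that a base inserted or missing inside a sequence can count as several, as in MIR-399e-5p with 8. The 27 are therefore not a count of names beyond the 2 mismatches that the authors allowed. The share of identical names, that of names with at most 2 differences and that of the level in the rest each lay outside the range of the other 10 (exact permutation p = 0.0909 each, adjusted p = 0.159 over 7 measures).

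Some of the sequences lacked only the 3′ end. Of the 63 sequences within their reference 24 (38.1%) were shorter than it at the 3′ end only, against 5% to 26.4% in the other libraries (mean 12.3% ± 7.06, SD, n = 10, exact permutation p = 0.0909). In 17 of the 24 a single base was missing, and among these were MIR-166g-5p, MIR-162, MIR-1919a and MIR-6022. The references of 3 names that were shorter at the 3′ end only are given, MIR-168c-3p lacking 3 bases, with the part listed in tomato in capitals.
mtr-MIR-166g-5p: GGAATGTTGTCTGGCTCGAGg
sly-MIR-1919a: ACGAGAGTCATCTGTGACAGg
mtr-MIR-168c-3p: CCCGCCTTGCATCAACTGaat
For MIR-166g-5p, 5 of the 8 other libraries that list it had 21 nt, the full length, while tomato and pear had 20 nt, soybean 19 nt and pea 15 nt.

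Once fragment-like names were left out, 108 names with 9560 RPM and 43469 reads remained, and all shares from here on are of that level unless said otherwise. The 5 highest were MIR-166h-3p (1779 RPM), MIR-1029 (1714), MIR-1919a (1327), MIR-398b-5p (1156) and MIR-166g-5p (1084), which together made up 73.8%. Families listed by their known target genes, called regulators, held 59.7% in tomato, less than in every other library (mean 93.2% ± 4.26, SD, n = 10, range 86.3% to 98.9%, exact permutation p = 0.0909, adjusted p = 0.303). The 16-nt MIR-398b-5p gave 12.1% of the level within this. MIR-6022, MIR-6026, MIR-6027 and MIR-5300 are regulators here and are also counted with the Solanaceae families below. When only sequences of 18 nt or more were used the share of regulators was 73.7%, still the lowest (others 90.3% to 100%). Adding the Solanaceae families to the regulators, a step chosen after the values were seen, brought it to 99.4%. No other library listed these families, so the step could raise tomato only. Families of single lineages were not added for the other plants, and 99.4% cannot be set against their range.

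The Solanaceae families were listed in tomato only. Their 12 names in 9 families held 16.8% (16.5% to 17.2%), and none of the other 10 libraries listed any of them. MIR-1919, a family described in tomato and its relatives, made up nearly all of it, with 1327 RPM for MIR-1919a and 195 RPM for MIR-1919c-5p. MIR-6022 had 31.7 RPM and MIR-9471b-3p 18.9 RPM. The others, MIR-9471a-3p, both strands of MIR-6027, MIR-9479, MIR-6026, MIR-1916, MIR-9476 and MIR-5300, had 1.32 to 11.7 RPM each.

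Names with the sly prefix were the check of the label. The 11 libraries listed 29 sly names, of which 25 were listed in tomato, against 5 in kiwifruit, 2 in orange, 1 each in blueberry and Hami melon and 0 in the other 6. They held 6.45% of the level of all names in tomato, against 0% to 0.792% (exact permutation p = 0.0909, adjusted p = 0.303), and 20 of the 25 were listed nowhere else. The match to the label was also seen in the sequences, since 25 of 25 had no mismatch and 21 of 25 were 20 to 22 nt long.

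The names listed in tomato only were of unlike kinds. Being listed in tomato only also depends on depth. Single reads were worth 0.153 RPM (kiwifruit) to 4.22 RPM (ginger) elsewhere against 0.22 RPM in tomato, the third deepest of 11. Names of few reads could therefore go unlisted in a less deep library at the same level. Besides the 20 sly names there were 30 others with a median of 7.5 reads. Of the 30, 16 were under 18 nt, 16 differed from the reference by more than 2 bases and 3 had no difference. The 20 sly names had a median of 25.5 reads, 1 was under 18 nt and none differed by more than 2 bases. MIR-1123 (14 nt, 80.9 RPM) and MIR-5178-5p (14 nt, 28.2 RPM) were the only 2 of the 30 among the 30 highest names.

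In some families the tomato form stood beside one named after another plant. In MIR-168 the 3p strand was listed as mtr-MIR-168c-3p (317 RPM) and as sly-MIR-168a-3p (96.6 RPM), which differ by C3T, the base of the mtr form first, its position from the 5′ end next and the base of the sly form last. In MIR-403, which acts on AGO2, the sly form of the 3p strand (26.2 RPM) was above the ath form (2.86 RPM), and they differ by T1C and A17G, the ath base first. The ath form lay below every other library that listed it, at 0.00993% of all names against 0.121% to 3.19% in 5 libraries, and the sly form was listed in tomato only. In MIR-166 the 5p strand of mtr-MIR-166g (1084 RPM) was above that of sly-MIR-166c (36.1 RPM), which differs by A3G, the mtr base first.

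MIR-166 was the leading regulator (plot of families by target). It acts on class III homeodomain leucine zipper genes, which set leaf polarity and vascular pattern, and held 30.6% in tomato (30.1% to 31.0%). The other 10 libraries ranged from 1.93% (ginger) to 79.94% (blueberry) with a median of 19.6%, so that tomato was the fifth of 11. The main 3p strand, aly-MIR-166h-3p, was listed in all 10 other libraries and with the same sequence in 9. A second form, gma-MIR-166h-3p, which starts 2 bases earlier, had 19.6 RPM, and the first was 90.9 times higher than it, against 0.0511 to 361 times in 9 others (median 2.65).

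A further list holds the families whose targets make or carry small RNA. MIR-162 acts on DCL1, MIR-168 on AGO1 and MIR-403 on AGO2, and together they held 11.3% in tomato against 0.424% (soybean) to 14.4% (coconut) in the others (mean 4.89% ± 4.42, SD, n = 10, exact permutation p = 0.182). Among the 5 ground libraries tomato was the highest, and the other 4 reached 2.95% at most (exact permutation p = 0.2, the smallest possible). MIR-168 gave 7.98%, of which bra-MIR-168c-5p had 347 RPM. MIR-162 gave 2.98% and MIR-403 0.331%.

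The copper list, of families that act on genes of copper proteins, held 12.3% in tomato and 0% to 3.95% in the others. This rested on 1 sequence. MIR-398b-5p had 1156 RPM in 16 nt, with 1 mismatch and 2 bases beyond the reference, whereas the 3p strands that are known to act on these genes, mtr-MIR-398c and mtr-MIR-398a-3p, had 17.4 and 2.2 RPM. The 8 other libraries that list MIR-398b-5p also had sequences of 16 or 17 nt. Without that name the copper list held 0.219%, against 0% to 1.57% elsewhere.

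**Figure D4:**
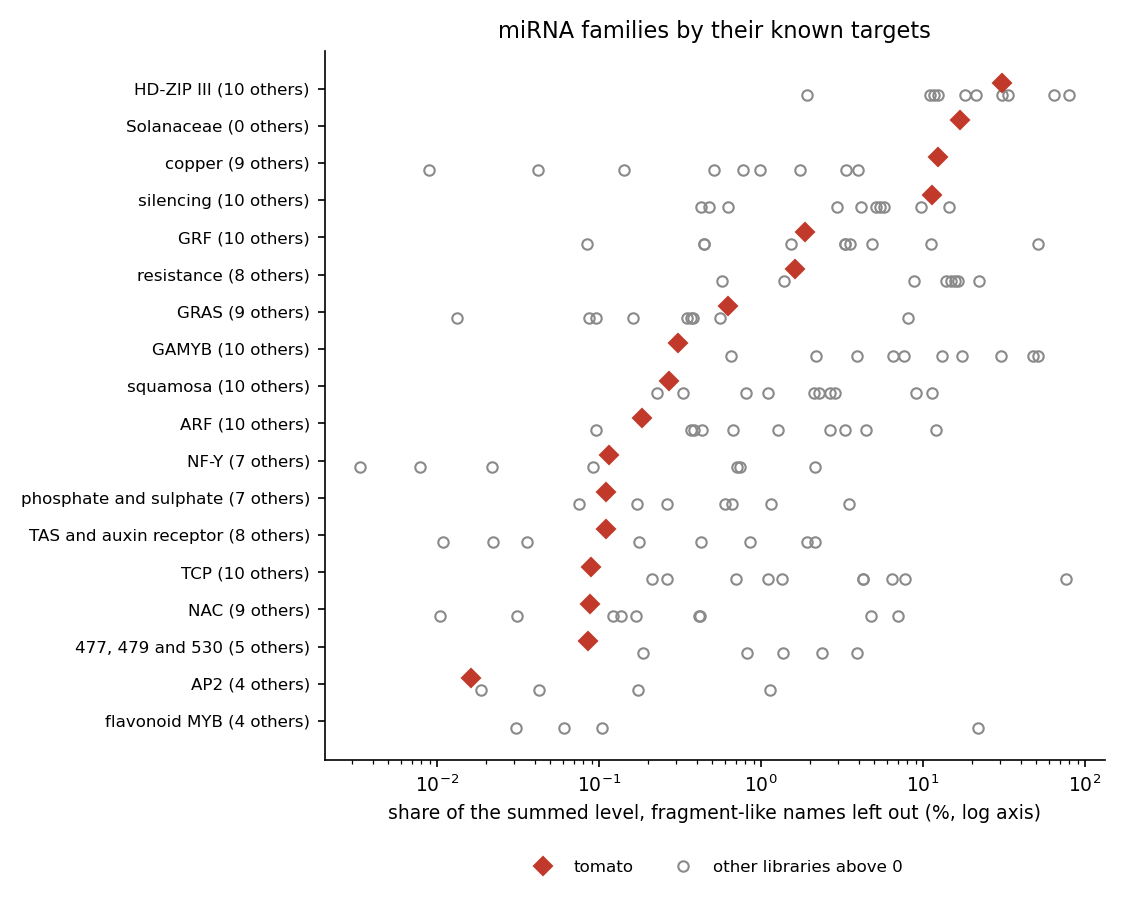
Share of the level without fragment-like names (%, log axis) by list of families, named after the genes they act on. Red diamonds are the tomato library, open circles the other libraries above 0, whose number is in parentheses, and no diamond is drawn for the flavonoid MYB list, of which tomato listed no member. Tomato lies left of all circles for GAMYB and TCP, which all 10 others list, and for AP2 and for the list of MIR-477, MIR-479 and MIR-530, which 4 and 5 others list, and has the only value for Solanaceae families.

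MIR-159 was low. It acts on GAMYB transcription factors, and mtr-MIR-159a had 25.5 RPM in tomato, or 0.0886% of all names, against 0.617% (blueberry) to 44.0% (Hami melon) in the other 10, with a median of 9.22%. Its 21-nt sequence was the listed one in 9 of them, so that the name stood for the same sequence. The ratio of MIR-166h-3p to MIR-159a, which does not depend on the other names, was 69.7 in tomato. It was 0.131 to 3.69 in 8 of the other libraries, 7.98 in coconut and 78.4 in blueberry. MIR-319, which shares part of its sequence with MIR-159 and acts on TCP genes of leaf growth, held 0.0897% from 39 reads. This was also below the 0.213% to 76.3% of the others. The main name of the family, mtr-MIR-319d-3p, lay within their range, at 0.0252% of all names against 0.00502% (grapefruit) to 47.1% (ginger). Its listed sequence in tomato had 23 nt, 2 of them beyond the reference.

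The other regulator lists held under 2% each. MIR-396, which acts on growth regulating factors, held 1.86% (0.0846% to 51.6% in the others). The list that acts on squamosa promoter binding protein-like genes, in tomato MIR-156 and MIR-157, held 0.271%, the tenth of 11 (0.229% to 11.4%). The auxin response factor list, in tomato MIR-167 only, held 0.184%, also the tenth (0.0957% to 11.97%). MIR-171 of the GRAS list held 0.626%, the second of 11 (0% to 8.10%), from 2 sequences of 15 and 16 nt with 2 mismatches each. MIR-169 of NF-Y genes held 0.115%, the fourth (0% to 2.16%). Of its 50 reads 43 were of mtr-MIR-169d-5p, a sequence of 17 nt with 5 mismatches counted without gaps. MIR-390 of TAS transcripts held 0.110% (0% to 1.82%), MIR-164 of NAC genes 0.0874% (0% to 7.04%) and MIR-172 of APETALA2-like genes 0.0161% (0% to 1.13%). The phosphate and sulphate list held 0.110% (0% to 3.49% in the others), and MIR-477, MIR-479 and MIR-530 together held 0.0851% (0% to 3.89%). No member of the flavonoid MYB list, MIR-828 and MIR-858, was listed, where the lowest listed value of the library is 5 reads.

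The resistance list holds families that act on transcripts of immune receptors, many of them 22 nt long, a length that can start the production of secondary small RNA. Tomato listed 14 names of 7 families, of which 9 had the sly prefix, 8 were listed in tomato only and 13 had no difference from the reference. Of the 10 sequences of 22 nt in the tomato library 8 belonged to this list, which held 14 of all 118 names. The references of 13 of the 14 have 22 nt, so this follows in part from the choice of the list. The level of the 14 names was modest, 155.9 RPM or 1.63%, against 0% (ginger and Hami melon) to 22.1% (orange) with a median of 11.3% (exact permutation p = 0.727). MIR-482e-3p (46.6 RPM), MIR-6022 (31.7 RPM) and MIR-482b (27.7 RPM) led it, and sly names gave 82.7% of it.

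Single names were compared between libraries without a test, as shares of all names. Of the 43 names listed in tomato and in at least 3 other libraries 8 (18.6%) lay above every other library that lists them and 11 (25.6%) below. Above were MIR-6300, MIR-5059, MIR-1029, MIR-4375, MIR-398b-5p, MIR-166g-5p, MIR-168c-3p and MIR-162b-5p, of which the first 5 were fragment-like, ended in CCA or were short. The last 3 were strands whose partners are the usual guides. Below were 11 names of regulators, and none of the 10 fragment-like names among the 43. Without fragment-like names 6 of 33 (18.2%) were above and 5 of 33 (15.2%) below. Those below were MIR-159a (listed in 10 others), MIR-157c-5p (8), MIR-403-3p (5), MIR-390a-5p (3) and osa-MIR-168a-5p (3). Libraries that do not list a name were left out of these calls, so that low levels there do not count. A name below is not a family below, since MIR-168 as a family was the second of 11.

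The balance of the strands of MIR-166, MIR-168 and MIR-162 lay outside the range of the other plants (plot of arm balance). Both strands were listed in tomato for 18 families, and since both are read in the same library, their ratio does not depend on its scaling. Strands were summed over the names of a family and were not traced to single hairpins. In MIR-166 the 5p strand, usually the discarded one, had 1124 RPM and the 3p strand 1800 RPM, so that 5p was 38.4% of both (37.6% to 39.3%). In the 8 other libraries that list both it was 0.473% (grapefruit) to 7.55% (pear) with a median of 1.22%.

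MIR-168 showed the same for its 3p strand. It was 54.3% of both (52.6% to 55.9%) in tomato, with 414 RPM for 3p and 349 RPM for 5p, the strand that acts on AGO1. In 8 other libraries 3p was 3.02% (ginger) to 37.8% (grapefruit), with a median of 12.2%. Of the 9 libraries that list both, tomato was the only one in which 3p was the higher.

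In MIR-162 the 5p strand had 60.9 RPM and the 3p strand, which acts on DCL1, 224 RPM. The 5p share was 21.4% (19.2% to 23.7%) in tomato, against 0.0246%, 0.145% and 0.191% in kiwifruit, pear and orange. In MIR-1919, listed in tomato only, the 5p strand was 12.8% (12.02% to 13.6%). In MIR-403 it was 8.33%, or 12 of 144 reads, against 1.65% in kiwifruit. Not every family followed: the 3p strand of MIR-396 was 10.4% and the 5p strand of MIR-482 3.79%, both within the range of the others. MIR-398 had 5346 reads, more than MIR-168 and MIR-162, and its 5p strand was 98.3%, also within the range of 8 others (2.84% to 98.7%), but this rests on the 16-nt sequence described above.

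**Figure D5:**
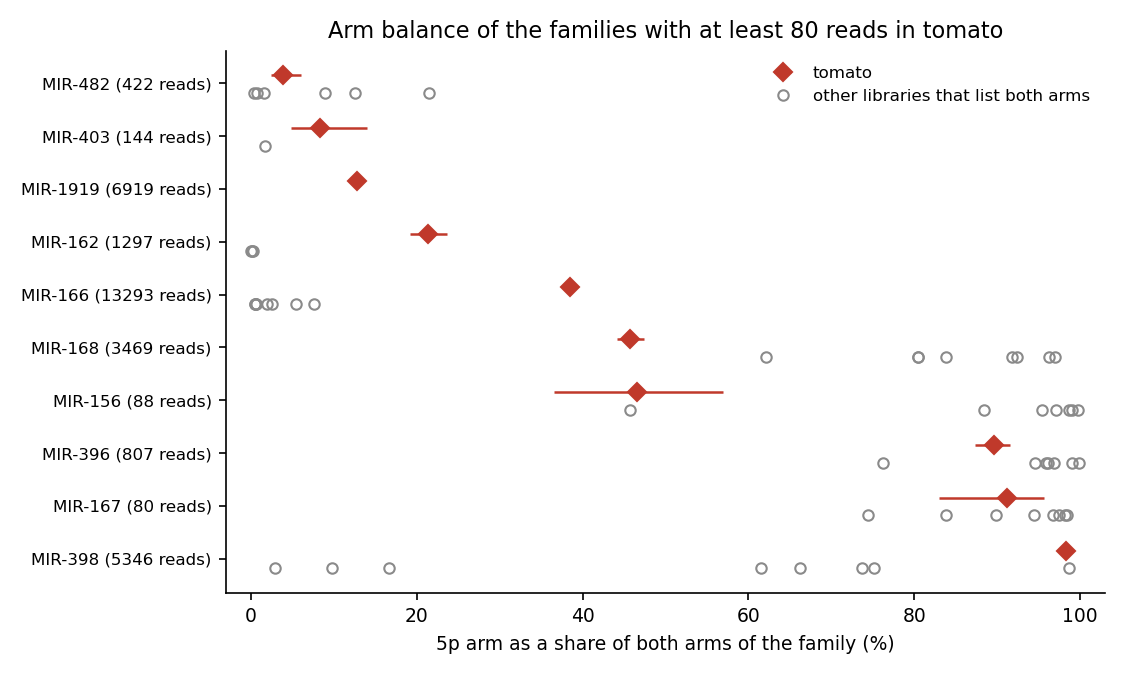
The 5p strand as a share of both strands of a family (%), for the 10 families with at least 80 reads of both strands in tomato. Red diamonds with 95% Wilson intervals are the tomato library and open circles the other libraries that list both strands. For MIR-166 and MIR-162 tomato lies right of all circles and for MIR-168 left of them.

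The minor strand was taken in each library as the strand with the lower level, so that it was not always the same strand. For MIR-168 it was 5p in tomato (45.7%) and 3p in the others (3.02% to 37.8%). Of the 16 families with both strands in tomato and in another library, the minor strand had its highest share in tomato in 8. For the 8 families with both strands in at least 6 other libraries a permutation test of the minor-strand share was added after the values were seen. MIR-166, MIR-168 and MIR-156 had the smallest p that their libraries allow (exact permutation p = 0.111, 0.111 and 0.125, adjusted p = 0.333 each), and the other 5 did not stand apart. MIR-156 had 41 reads of 5p and 47 of 3p in tomato, and kiwifruit was close to it (46.6% 5p in tomato and 45.7% in kiwifruit).

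Of the 118 names 50 were listed in tomato only and 7 in all 11 libraries. The most were shared with orange, 39 names or 33.1% of the tomato list and 35.1% of the orange list, followed by pear and soybean with 38 each. The fewest were shared with ginger, 15 names, which are 12.7% of the tomato list and 46.9% of the ginger list. Single reads were worth 4.22 RPM in ginger and 0.22 RPM in tomato, and the lowest listed names had 7 and 5 reads. Names at a low level in tomato could thus go unlisted in ginger, and the overlaps were not adjusted for depth. The 25 names shared with coconut were the largest part of any other list, 65.8%. Of the names shared with another library, the listed sequence was the same in 31.0% (Hami melon) to 59.3% (pea).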

How the data were processed

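Small RNA from EPDELNs of 11 plants was sequenced on an Illumina HiSeq instrument, 1 library per plant. The authors removed adaptor, low-quality and repeat reads, used MIRPIPE to assign the rest, with up to 2 mismatches and no genome, to the mature miRNAs that miRBase holds for plants, and deposited levels in RPM with the most abundant sequence and its reference. The 950 values could each be divided by the smallest step of their library to a whole number of reads (tolerance 0.01 reads), and were the same in the merged table and the single files (relative tolerance 1e-08). The sources used here do not name the reads to which RPM refers. No further scaling or filter was applied.

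The members and lists were chosen with earlier results of these data known. Named are the fragment-like and sly names, the 30 highest, the highest of each listed family, both strands where both were listed, and names on which a count of 5 or fewer turns. Families are names with the same number. Strands were taken from the name or, without one, from the most similar named sequence. Differences are mismatches by sliding without gaps plus bases beyond the reference. Intervals (95%; exact Poisson for levels, Wilson for shares) cover counting error only. Tomato was compared with the other 10 libraries by two-sided exact permutation tests (smallest p 0.0909, and 0.2 for the 5 ground libraries), adjusted by Benjamini-Hochberg over 10 measures. Tests of lengths without fragment-like names, of the fit to references and of strand balance were added later. Scripts (scipy 1.17.1 and pandas 2.3.3 under Python 3.11.15) were tested on simulated data. Alternatives were a minimum of 10 reads, of 18 nt, at most 2 differences, leaving out fragment-like names, counting each name once and a pseudocount of 1 RPM.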

Additional observations from a re-analysis of the deposited data

How the results depend on the processing

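No paired analysis was possible because each plant has 1 library, and leaving out a replicate was not possible for the same reason. The share of fragment-like names was 62.9% over sequences of 18 nt or more, 70.8% over names with at most 2 differences from the reference and 8.47% with each name counted once. With the last tomato was the sixth of 11 rather than the second (median of the others 8.40%). The share of 20 to 22 nt was 34.3%, 20.6% and 55.1% under these settings and 58.4% without fragment-like names, and tomato was the lowest of the 11 under each. The share under 18 nt was 40.0% with at most 2 differences, 31.4% counted once and 36.5% without fragment-like names. Regulators held 73.7% at 18 nt or more, 57.1% with at most 2 differences and 61.1% counted once, and with the last tomato was the ninth of 11 rather than the lowest. The share of sly names was 11.3%, 6.84% and 21.2% under these settings and 19.4% without fragment-like names. A minimum of 10 reads left 80 of the 118 names and moved none of the 5 shares beyond its counting interval, and was not applied to strand balance. A pseudocount of 1 RPM moved no strand balance beyond its counting interval. With at most 2 differences, an alternative added after the values were seen, strand balance stayed within its interval in 14 families and could not be computed for MIR-164, MIR-169, MIR-398 and MIR-399. For lengths, strand balance and 3′ ends, plant, preparation and library cannot be told apart. No genome was used here, so fragment-like names were not traced to a gene.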

Other observations

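The strands that are usually discarded and the shortened 3′ ends did not coincide in every case. In tomato ath-MIR-162b-5p kept the 3′ end of its reference, mtr-MIR-168c-3p and sly-MIR-168a-3p lacked 3 bases there and mtr-MIR-166g-5p lacked 1. The guide strands aly-MIR-166h-3p and bra-MIR-168c-5p were listed at full length, while the guide strand mtr-MIR-162 lacked its last base.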
